A study of Mus musculus with 13 samples.

Results

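The 10 genes described here, Kdm5a, Kdm5b, Kdm1a, Kdm2a, Kdm2b, Kdm3a, Kdm3b, Kdm4a, Kdm4b and Kdm6b, encode histone lysine demethylases. All were measured, by 30 probe sets of the 45037 non-control probe sets on the array (10 of 18193 named genes). A probe set was a member when its only gene symbol, current or older, was that of a listed gene. The family was chosen by a result in these data: Kdm5a was selected on the difference between creatine-fed and untreated mice at 1 of its 6 probe sets, so that difference is given as a description and supports nothing.

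Total RNA from 1 brain hemisphere per mouse was measured on Affymetrix mouse expression arrays in 13 males of C3HeB/FeJ, an inbred mouse strain. The labels describe 6 creatine-fed mice, which had free access to pellets with 1% creatine for 6 months. Another 7 untreated mice ate pellets of equal calories without added creatine, and both groups began the diet at 10 to 12 weeks of age. The comparison asks which transcripts differed in the brain after the creatine diet, in a study of health and life span.

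Histone lysine demethylases remove methyl groups from lysines in the tails of histones and so alter the marks that accompany active or silent genes. Kdm1a does this with a flavin cofactor, whereas the other members are Jumonji-domain oxygenases that need iron, oxygen and 2-oxoglutarate. In brain the family is known from neurodevelopment, where Kdm1a works in complexes that repress neuronal genes and mutations in KDM5 genes are linked to intellectual disability. Creatine is the substrate of creatine kinase and forms the phosphocreatine energy reserve of neurons and muscle.

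The deposited value is a linear intensity, scaled so that each array has the same trimmed mean, and a difference is a difference of log2(intensity + 16), which understates the change of dim probe sets. Array medians were 37 to 45. Of the 30 member probe sets, 17 were above the array median on all 13 arrays, 7 were below it on all 13, and 6 fell on either side. The neuron markers were present, with all 12 measured markers above every array median. Cerebellar markers varied between hemispheres: their mean log2 intensity was 6.51 in untreated replicate 3 and 8.38 in creatine-fed replicate 4, against 9.01 to 10.03 in the other mice. Probe sets of a gene are named by their order of brightness, their mean intensity over the 13 arrays; the plots give their identifiers. Levels of different probe sets are not otherwise compared with each other, since each has its own probe response. The brighter Kdm1a, the second brightest Kdm5b and the dimmer Kdm2b probe set carry the suffix _s_at. The second brightest Kdm6b probe set carries _x_at. Whether the probes of these sets also match other genes was not checked. In a whole hemisphere, fewer cells of a type and less RNA per cell cannot be told apart. The p-values measure only the spread between these mice.

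In the whole family, 1 of 30 member probe sets differed between the groups at an adjusted p under 0.05 in limma, and that is the Kdm5a probe set that chose the family. Over all probe sets the same call was made for 4 of 45037 (0.00888%), and nothing is read from the member's count against it. Of the other 29, none passed. At an unadjusted p under 0.05 in limma there were 3 member probe sets (10%), the other two of Kdm5b and Kdm6b, against 11.9% of all probe sets. The groups did not overlap at 1 member probe set, once more the one that chose the family, and at 0.560% of all; nothing is read from that count either. Among the 22519 brighter probe sets, those at or above the median of the mean log2 intensity, 138 were called (0.613%), and of the 20 members there 1 was called, again the Kdm5a probe set.

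The means of the member probe sets lay on both sides. By the mean of log2(intensity + 16), creatine-fed mice were higher at 12 of 30 (40%) and lower at 18, and by the mean linear intensity they were higher at 14. On the log2 scale, 42.2% of all probe sets were higher. The median difference over the members was -0.02, and over all probe sets -0.03. At the brightest probe set of each member gene, 5 genes were higher and 5 lower on the log2 scale (6 were higher by linear means), with a median of 0.04 against -0.03 over all genes, of which 41.5% were higher. With each array centred on its median, 21 of the 30 members had the higher mean in creatine-fed mice, and with quantile normalization 16. The median difference over all probe sets was then 0.02 and -0.004. The share of all probe sets that were higher was not counted under these scalings. Apart from the Kdm5a probe set that chose the family, the largest difference in either direction at a member probe set was 0.37 in size.

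**Figure D1:**
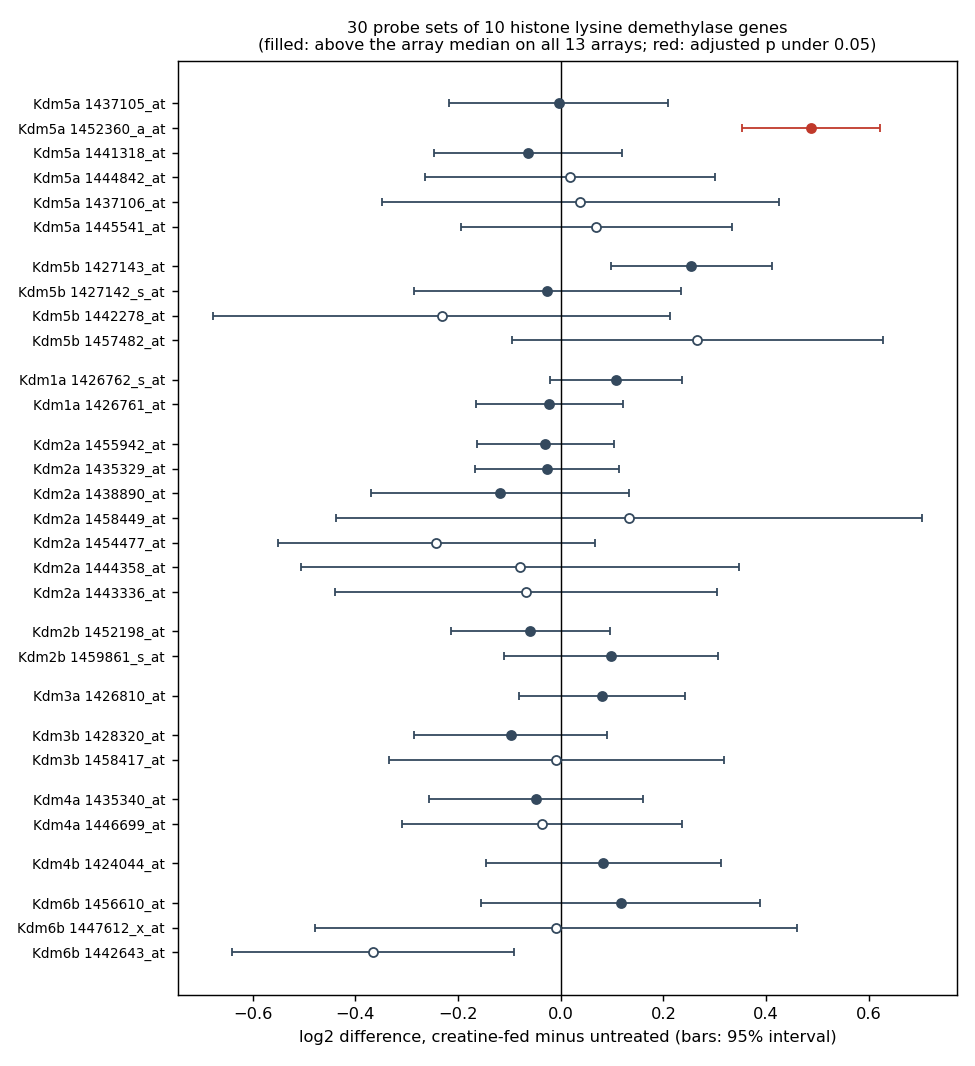
Log2 difference between creatine-fed (n = 6) and untreated (n = 7) mice at each of the 30 member probe sets, by gene and from the brightest to the dimmest of each, with the 95% interval from limma. Filled points are above the array median on all 13 arrays; the Kdm5a probe set in red at 0.49 is the one that chose the family, and the other 29 have adjusted p-values above 0.05.

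Kdm5a removes the higher methylation states of lysine 4 of histone H3, a mark of active promoters, and was first found as a protein that binds the retinoblastoma protein. The probe set that chose the family is its second brightest and the only one of the gene with the suffix _a_at, which Affymetrix gives to probes shared by alternative transcripts of a gene. At this _a_at probe set the 6 creatine-fed mice read 116 to 137, with a median of 133.5, and the 7 untreated mice read 82 to 100, with a median of 85. All 6 creatine-fed mice were above every untreated mouse, and the gap from 100 to 116 was wider than the SD of either group. The means were 130 ± 8.0 (SD, n = 6) and 88.1 ± 6.23 (SD, n = 7), a difference of 0.49 with an SE of 0.06 and a 95% interval of 0.35 to 0.62, and the adjusted p by which it was chosen was 0.0402 in limma. This adjusted p lay near the threshold. Inside it were also a probe set of Tcl1b3 at 0.034 with a difference of -0.66, and one of Mef2c and one without a symbol, both at 0.0419, with differences of 0.71 and 0.68. Just outside it stood probe sets of Muc20 and Creb1, both at 0.0561, with differences of -0.70 and -0.42.

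The call at the _a_at probe set was lost in most fits that leave out 1 mouse, whichever the mouse, and in some of the other models. Its difference was 0.38 to 0.56 over 29 other settings (the lowest value was with an offset of 50 before log2). These are refits of the same mice at a value chosen for its difference, so the range is a description and supports nothing. The call was lost in each of 11 of the 13 fits that leave out 1 mouse, with limma adjusted p-values up to 0.126. It remained without creatine-fed replicate 4 or untreated replicate 1. The differences in these 13 fits were 0.47 to 0.52, and over the whole array the fits called 0 to 6 probe sets. In the brighter probe sets the adjusted p of the _a_at probe set was 0.0039 in limma.

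None of the other 5 probe sets of Kdm5a passed, and without covariates their differences were -0.06 to 0.07. The gene's brightest probe set read 147 to 245 in creatine-fed mice, with a median of 199.5, and 175 to 239 in untreated mice, with a median of 198. The lowest and the highest of the 13 mice were both creatine-fed, so the untreated range lies inside the creatine-fed range. The difference was -0.00 with a 95% interval of -0.22 to 0.21 (limma, adjusted p = 0.994), and its sign turned in 12 of 29 other settings.

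The third brightest read 48 to 71 in creatine-fed mice, median 57.5, and 48 to 68 in untreated mice, median 64. Both groups had the same lowest value, and they overlapped almost fully. The difference was -0.06, with an interval of -0.25 to 0.12 (limma, adjusted p = 0.819).

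The remaining Kdm5a probe sets are dimmer, and none was above the median on every array. At the fourth the creatine-fed mice read 28 to 61 and the untreated mice 29 to 55, with a median of 46 in both. The difference was 0.02, with an interval of -0.26 to 0.30. The fifth is annotated to the same sequence record as the brightest, and whether both detect the same part of it was not checked. At the fifth the creatine-fed mice read 21 to 55, median 43.5, and the untreated mice 21 to 52, median 40. There the groups shared their lowest value, and the difference was 0.04, with an interval of -0.35 to 0.43. At the sixth, below the median on all 13 arrays, the readings were 8 to 15 in creatine-fed mice, median 13, and 3 to 18 in untreated mice, median 10, with a difference of 0.07 and an interval of -0.19 to 0.33.

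The fourth and the fifth probe set changed with the marker covariates. With the brainstem markers as a covariate their differences were 0.36 and 0.36 (limma, adjusted p = 0.528 and 0.741), and with the astrocyte markers 0.32 and 0.31 (limma, adjusted p = 0.536 and 0.734). Both marker means themselves differed between the groups (exact permutation test, p = 0.00466 and 0.0035). These fits therefore cannot tell the diet from the markers. At an unadjusted p under 0.05 in limma, 1 of the 5 other Kdm5a probe sets passed with the brainstem covariate, against 4031 of all 45037 probe sets. In the fit without covariates 0 of the 5 passed, against 11.9% of all probe sets. Nothing is read from these counts. Whether the probe sets differ from each other was not tested, since the _a_at probe set was chosen for its value. The sources used here list no sequence record for the _a_at probe set, and the probe positions were not used here.

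**Figure D2:**
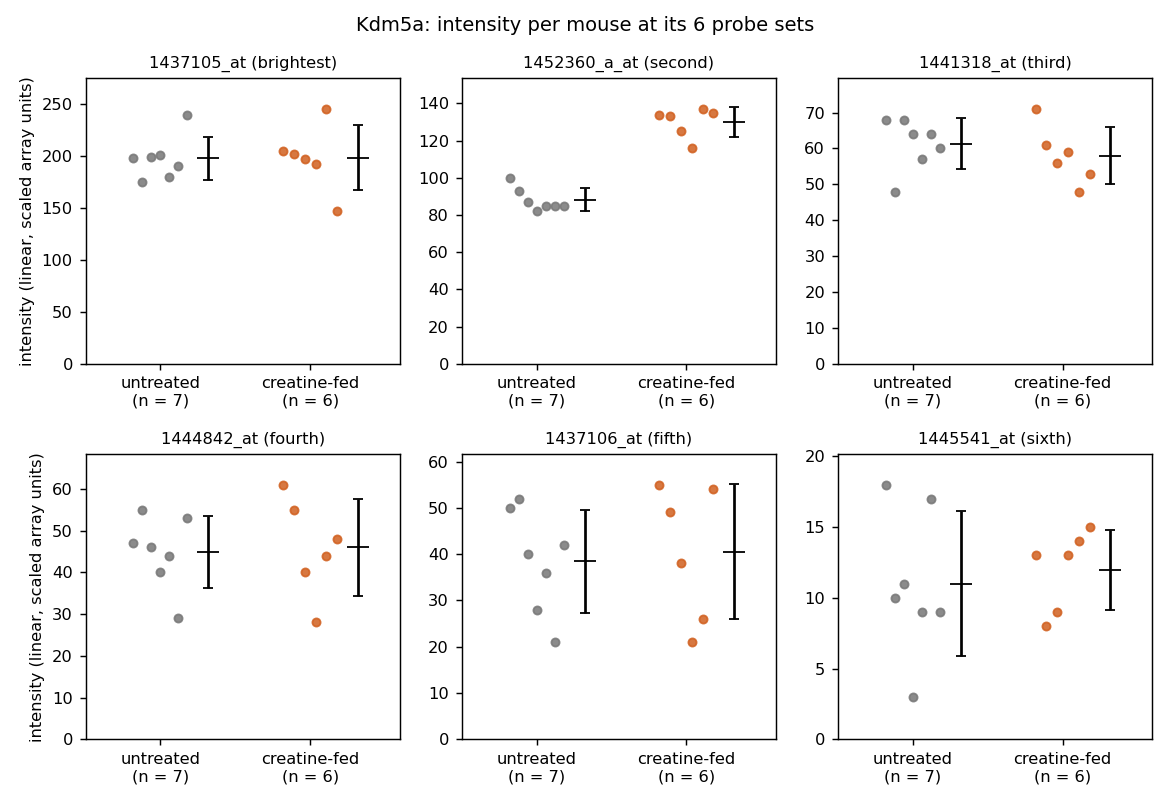
Linear intensity at the 6 Kdm5a probe sets; each point is a mouse, and bars are group means ± SD, with 7 untreated and 6 creatine-fed mice. Axes start at 0 and differ between panels; at the second brightest, the _a_at probe set, the untreated mice end at 100 and the creatine-fed mice begin at 116, and at the other 5 the groups overlap.

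Whether the Kdm5a probe sets vary together was examined on values that do not use the diet contrast, by removing each group's mean and correlating over the 13 mice (5 pairs, permutation of mice within groups). For the _a_at probe set with the fifth, Pearson's r was 0.65 (permutation p = 0.022, adjusted 0.0929) and Spearman's rho 0.61 (permutation p = 0.0437, adjusted 0.111). With the fourth, r was 0.62 (permutation p = 0.0372, adjusted 0.0929) and rho 0.61 (permutation p = 0.0442, adjusted 0.111). Neither passed after adjustment over the 5 pairs, and without the pair of mice farthest from the median of the _a_at probe set, untreated replicate 1 and creatine-fed replicate 4, r was 0.48 and 0.55. With every array centred on its median, the same r values were 0.39 and 0.26.

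The bright Kdm5a probe sets gave r values near 0. With the brightest r was -0.04 (permutation p = 0.896, adjusted 0.896) and rho 0.07 (permutation p = 0.828, adjusted 0.828), and with the third r was -0.09 (permutation p = 0.774, adjusted 0.896) and rho -0.07 (permutation p = 0.819, adjusted 0.828). For the dim sixth probe set r was 0.47 (permutation p = 0.127, adjusted 0.211) and rho 0.52 (permutation p = 0.0837, adjusted 0.139). Without the 2 farthest mice these r values were -0.12, -0.36 and 0.44.

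**Figure D3:**
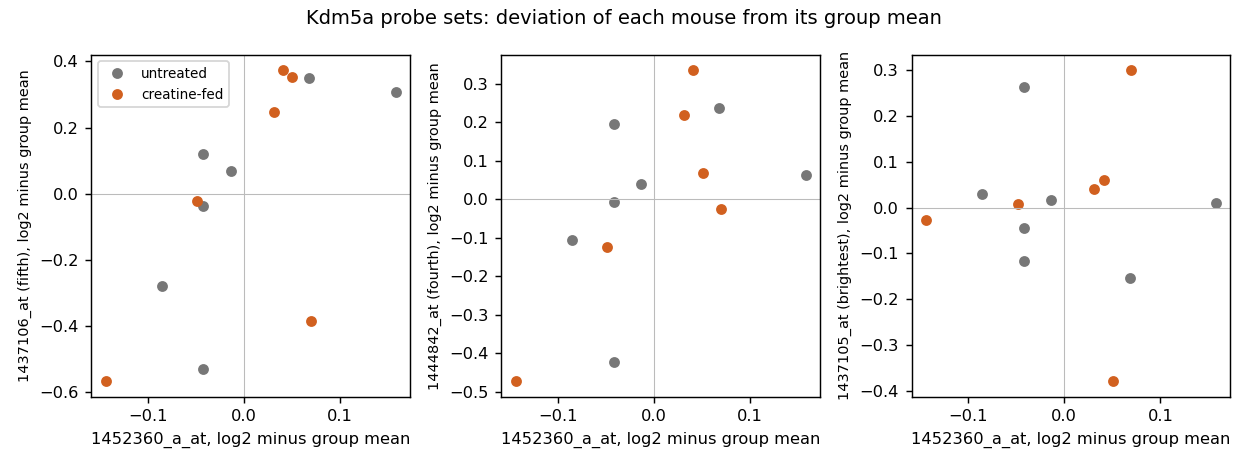
Deviation of each of the 13 mice from its group mean, in log2(intensity + 16), at the _a_at probe set (horizontal) and at 3 other Kdm5a probe sets (vertical). The points rise together for the fifth (r = 0.65) and the fourth (r = 0.62), neither past the adjusted threshold, and show no slope for the brightest (r = -0.04).

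Kdm5b acts on the same histone H3 lysine as Kdm5a. At its brightest probe set the creatine-fed mice read 289 to 340, with a median of 310.5, and the untreated mice 225 to 292, with a median of 256. Of the 6 creatine-fed mice, 5 were above every untreated mouse, and the groups overlapped between 289 and 292. The means were 311 ± 18.9 (SD, n = 6) and 259 ± 24.8 (SD, n = 7), a difference of 0.25 with an SE of 0.07 and a 95% interval of 0.10 to 0.41 (limma, adjusted p = 0.215). It did not pass in any of 29 other settings, where the difference was 0.18 to 0.32 and the adjusted p 0.0879 to 0.620.

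The other 3 Kdm5b probe sets did not pass either. The second brightest is annotated to the same sequence record as the brightest, and whether both detect the same part of it was not checked. The second brightest had means of 66.8 ± 9.47 (SD, n = 6) in creatine-fed and 69.1 ± 15.6 (SD, n = 7) in untreated mice. Its difference was -0.03, with an interval of -0.29 to 0.23. Of the remaining pair, both dim, one differed by -0.23 and the other by 0.27, with limma adjusted p-values of 0.708 and 0.569.

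Kdm1a removes mono- and dimethylation of lysine 4 of histone H3 and is the catalytic subunit of the CoREST repressor complex. At its brighter probe set the creatine-fed mice read 629 to 717, with a median of 649, and the untreated mice 566 to 662, with a median of 607. All 6 creatine-fed mice were above the untreated mean, and 2 of them were above every untreated mouse. The means were 658 ± 32.4 (SD, n = 6) and 609 ± 33.5 (SD, n = 7), a difference of 0.11 with an interval of -0.02 to 0.24 (limma, adjusted p = 0.509). The gene's other probe set read 271 to 342 and 286 to 342, with medians of 298.5 and 304, and differed by -0.02 (limma, adjusted p = 0.937).

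Kdm6b removes methylation of lysine 27 of histone H3, the mark of Polycomb repression, and is known for its induction in immune cells and in neural differentiation. At its dimmest probe set the creatine-fed mice read 22 to 54, with a median of 40.5, and the untreated mice 41 to 62, with a median of 52. Of the creatine-fed mice, 5 of 6 were below the untreated mean, and the ranges overlapped from 41 to 54. The means were 38.8 ± 11.2 (SD, n = 6) and 53.7 ± 7.76 (SD, n = 7), a difference of -0.37 with an SE of 0.13 and an interval of -0.64 to -0.09 (limma, adjusted p = 0.287). The adjusted p was 0.154 to 0.799 over 29 other settings.

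The brightest Kdm6b probe set had its means the other way round. There the creatine-fed mice read 140 to 231, with a median of 199, and the untreated mice 134 to 213, with a median of 183. Only 2 creatine-fed mice were above every untreated mouse, and the difference was 0.12 with an interval of -0.15 to 0.39 (limma, adjusted p = 0.768). The remaining Kdm6b probe set differed by -0.01. No Kdm6b probe set passed, and the differences of the 3 do not share a sign.

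**Figure D4:**
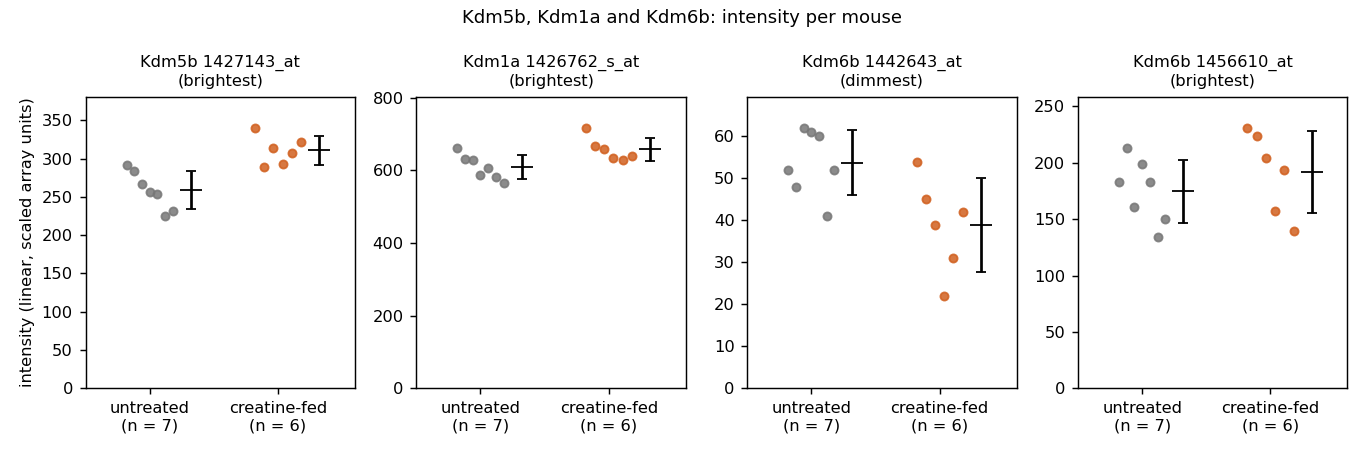
Linear intensity at 4 probe sets of Kdm5b, Kdm1a and Kdm6b; points are mice and bars are group means ± SD (7 untreated, 6 creatine-fed), on axes that start at 0. The groups overlap in each panel, from 289 to 292 for Kdm5b and from 41 to 54 for the dimmest Kdm6b probe set.

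Kdm2a and Kdm2b act on lysine 36 of histone H3 and carry a zinc finger that binds unmethylated CpG islands; Kdm2b also brings a Polycomb complex, PRC1.1, to them. At the brightest Kdm2a probe set the creatine-fed mice read 191 to 218, median 199, and the untreated mice 187 to 226, median 212. The creatine-fed range lay within the untreated range, and the difference was -0.03 with an interval of -0.16 to 0.10. Of the 7 Kdm2a probe sets 6 were lower and 1 was higher in creatine-fed mice, with limma adjusted p-values of 0.542 to 0.923. The smallest belonged to a dim probe set, which read 5 to 21, median 13.5, against 9 to 25, median 18, and overlapped over most of its range.

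Both Kdm2b probe sets were bright and differed in sign. At the brighter the creatine-fed mice read 170 to 219, median 199.5, and the untreated mice 187 to 225, median 215, a difference of -0.06 with an interval of -0.21 to 0.10. At the other they read 166 to 227, median 191.5, and 139 to 221, median 181, a difference of 0.10 with an interval of -0.11 to 0.31. The groups overlapped widely at both, with limma adjusted p-values of 0.797 and 0.741.

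Kdm3a and Kdm3b remove mono- and dimethylation of lysine 9 of histone H3, a mark of silent chromatin, and Kdm3a is known from spermatogenesis and metabolic control. The only Kdm3a probe set read 278 to 354 in creatine-fed mice, median 324, and 274 to 341 in untreated mice, median 297. The ranges nearly coincided, and the difference was 0.08 with an interval of -0.08 to 0.24 (limma, adjusted p = 0.723). The brighter Kdm3b probe set read 231 to 349, median 310, and 307 to 364, median 332. The creatine-fed value of 231 stood apart from the next at 307, and the difference was -0.10 with an interval of -0.29 to 0.09 (limma, adjusted p = 0.71). The dim second Kdm3b probe set differed by -0.01.

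Kdm4a and Kdm4b remove trimethylation of lysine 9 of histone H3, and Kdm4a also acts on lysine 36. The brighter Kdm4a probe set read 118 to 166 in creatine-fed mice, median 141, and 121 to 181 in untreated mice, median 142. The medians were 1 unit apart, and the difference was -0.05 with an interval of -0.26 to 0.16 (limma, adjusted p = 0.897); its sign turned in 5 of 29 other settings. The only Kdm4b probe set read 168 to 191, median 170.5, and 109 to 201, median 172. All creatine-fed mice lay inside the untreated range, and the untreated value of 109, replicate 7, stood apart from the others at 157 to 201. The difference was 0.08 with an interval of -0.15 to 0.31 (limma, adjusted p = 0.81). Without that mouse it was -0.01, with the astrocyte covariate -0.21, and its sign turned in 5 of 29 other settings. The second Kdm4a probe set was below the median on all arrays and differed by -0.04. At their brightest probe sets, 9 of the 10 member genes differed by less than 0.15 in size, Kdm5b being the exception.

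Other genes of histone methylation and protein partners of Kdm1a, Kdm2b and Kdm5a were taken as 8 lists with 90 genes. Of these, 85 were measured, each at its brightest probe set. The pooled counts thus include partners that do not write or erase methylation, such as the deacetylase Hdac1. For some of the genes named below, other probe sets differed in the opposite direction. None of the 85 was called by limma, against 1 of 18193 genes (0.00550%). At an unadjusted p under 0.05 there were 6 (7.06%) in limma, against 11.2% of all genes in limma. An exact rank-sum test also gave 6, but its share over all genes was not counted. Over all probe sets the rank-sum count was 4760 of 45037. Of the 85 genes, creatine-fed mice had the higher mean at 35 and the lower at 50 (41.2% higher), with a median difference of -0.02.

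The 14 other demethylases were higher in 6 and lower in 8, with a median of -0.02. The smallest unadjusted p was that of Kdm6a, the X-linked paralog of Kdm6b, at 199 ± 32.5 (SD, n = 6) against 163 ± 22.1 (SD, n = 7), a difference of 0.26 (limma, adjusted p = 0.383). Its other 3 probe sets differed by -0.07, 0.20 and -0.31. Jmjd1c, a relative of Kdm3a, differed by -0.14, and the X-linked Phf8, which acts on mono- and dimethylated lysines of histones H3 and H4, by -0.11. The remaining Kdm5 paralogs, Kdm5c and the Y-linked Kdm5d, differed by 0.11 and 0.00.

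The list of methyltransferases and core subunits for lysine 4 of histone H3, the lysine on which Kdm5a acts, had 19 measured genes. They were higher in 6 and lower in 13, with a median of -0.04. Smyd3, a SET and MYND domain methyltransferase, read 68 ± 13.6 (SD, n = 6) against 50.7 ± 10.9 (SD, n = 7), a difference of 0.34 (limma, adjusted p = 0.316). Setd1a, a catalytic subunit of the COMPASS complex, differed by -0.12 and its CpG-binding partner Cxxc1 by -0.10. The other Cxxc1 probe set differed by 0.17. The 6 measured methyltransferases for lysine 9 were higher in 2 and lower in 4, with a median of -0.05. Prdm2 differed by 0.16, Setdb2 by -0.13 and Suv39h2 by -0.21.

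The 11 genes of the list for lysine 27, which includes the subunits of the Polycomb complex PRC2, were higher in 4 and lower in 7, with a median of -0.02. The PRC2 accessory proteins Phf19 and Phf1 differed by -0.26 (31.2 ± 5.98 against 40.4 ± 6.13, SD, n = 6 and 7) and -0.22 (182 ± 27.9 against 213 ± 13.9), with limma adjusted p-values of 0.292 and 0.334. The Phf19 probe sets were dim, and the other one, with means of 6 against 18.9, differed by -0.61 (limma, adjusted p = 0.215). The core subunit Suz12 differed by 0.22. The 5 methyltransferases for lysine 36, whose mark Kdm2a and Kdm4a erase, were higher in 4 and lower in 1, with a median of 0.04. Smyd2, Nsd3 and Nsd2 differed by 0.09, 0.09 and 0.04. All other Nsd3 probe sets were lower in creatine-fed mice, by -0.28 to -0.08, so the Nsd3 probe sets disagree.

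Protein partners of the members were examined in the same way. The 10 measured CoREST partners of Kdm1a were higher in 4 and lower in 6, with a median of -0.03. Hdac1, a deacetylase of that complex, read 175 ± 10.8 (SD, n = 6) against 203 ± 16.2 (SD, n = 7), a difference of -0.19 (limma, adjusted p = 0.275). Rcor1, its scaffold, differed by 0.26 at its brightest probe set (limma, adjusted p = 0.368) but by -0.26 at another (limma, adjusted p = 0.238), so its probe sets disagree. Phf21a, which reads unmethylated lysine 4, differed by 0.22.

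The 8 measured PRC1.1 partners of Kdm2b were higher in 4 and lower in 4, with a median of -0.01. Its corepressor Bcor differed by 0.15, Yaf2 by 0.06 and the ubiquitin ligase subunit Ring1 by -0.07. The list of Kdm5a partners of the Sin3 complex and Rb, which also holds Rbpj, a transcription factor of the Notch pathway, had 12 measured genes. They were higher in 5 and lower in 7, with a median of -0.02. Suds3 differed by 0.11, Arid4b by -0.11 and Rb1, the retinoblastoma protein, by -0.13. The other Suds3 probe set differed by -0.06, and the other Arid4b probe sets by -0.20 to 0.20.

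**Figure D5:**
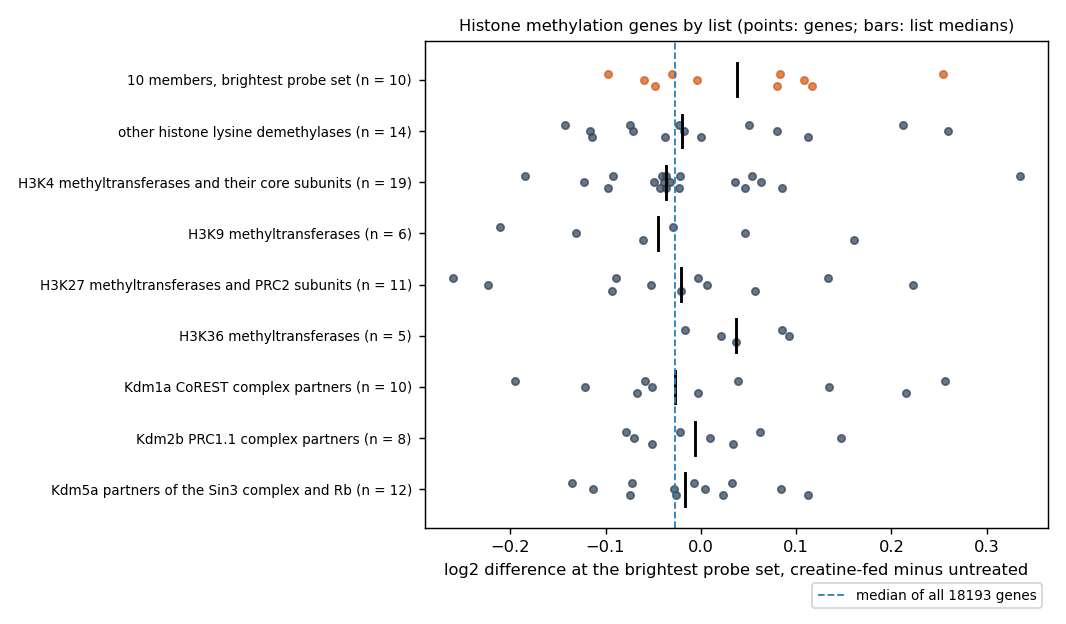
Log2 difference between creatine-fed and untreated mice at the brightest probe set of each gene, by list, with list medians as black bars and the median of all 18193 genes as a dashed line. No list gene was called, and the list medians lie between -0.05 and 0.04.

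By the rule for likeness, the 5 probe sets of other genes closest to the _a_at probe set of Kdm5a over the 13 mice after removing group means, among 19682 brighter named probe sets, belonged to Ldhd, Cul5, Tsn, Fads1 and Pdgfa. Their r values, which the ranking selected and which share arrays and scaling with it, were 0.91, 0.91, 0.89, 0.87 and 0.87, and rho 0.93, 0.89, 0.90, 0.89 and 0.88. Without the 2 farthest mice r was 0.88, 0.77, 0.85, 0.83 and 0.78. Their differences between the groups had both signs: Ldhd, a lactate dehydrogenase of the D form, differed by -0.19, whereas Cul5, a cullin scaffold of ubiquitin ligases, differed by 0.46 (158 ± 20.1 against 111 ± 19.1, SD, n = 6 and 7). None of the 5 was called, with limma adjusted p-values of 0.155 to 0.925.

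Other properties of the hemispheres differed between the same groups. The brainstem and monoaminergic neuron markers were lower in creatine-fed mice at 8 of 9 genes, with summed intensities of 224 to 339 against 300 to 467, a difference of -0.38 in the mean log2 intensity (exact permutation test, p = 0.00466, adjusted over 11 measures 0.0256). Most of these markers were dim: 1 of the 9 was above the array median on every array. The serotonin neuron gene Slc6a4 had means of 9.5 in creatine-fed and 33 in untreated mice, with ranges of 3 to 16 and 2 to 55. Tph2 had means of 13.5 and 35, with ranges of 4 to 23 and 9 to 62, so the groups overlapped at both genes. The oligodendrocyte and myelin markers were lower at 8 of 9 genes, with sums of 17568 to 19658 against 19108 to 23857 and a difference of -0.13 (exact permutation test, p = 0.00874, adjusted 0.0321). The astrocyte markers were lower at 9 of 10 genes, with sums of 16981 to 17758 against 17663 to 19845 and a difference of -0.10 (exact permutation test, p = 0.0035, adjusted 0.0256). No marker of these lists was at 0 on any array. The other 7 marker lists did not pass, with exact permutation p-values of 0.0635 to 0.875. With each of these marker means as a covariate in turn, the difference at the Kdm5a _a_at probe set was 0.52, 0.48 and 0.55, with limma adjusted p-values of 0.211, 0.317 and 0.0363.

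The measures of the array did not track the Kdm5a _a_at probe set within groups at an adjusted p under 0.05. Among 12 such measures, the array median gave r = 0.48 (permutation p = 0.109, adjusted p = 0.729), with rho 0.36. Within the 6 creatine-fed mice alone its r was 0.91 (exact permutation p = 0.0306, adjusted over 24 relations 0.733) and rho 0.55 (exact permutation p = 0.272), and within the 7 untreated mice r was 0.0049. The creatine-fed r was 0.61 without replicate 4, the lowest of the 6 in both measures, and -0.72 without the 2 farthest mice, so it rests on those mice. With every array centred on its median, the difference at the _a_at probe set was 0.54 (limma, adjusted p = 0.0292). The ratio of 3' to 5' control probe sets, a sign of RNA quality, gave r = -0.05. That ratio differed by -0.02 between the groups in mean log2 (exact permutation test, p = 0.381). With it as a covariate, the difference at the Kdm5a _a_at probe set was 0.49 (limma, adjusted p = 0.0597).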

How the data were processed

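The intensities deposited by the authors are whole numbers on a linear scale, 1 per probe set and array, whose mean after removing 2% of probe sets at each end was 150.05 on every array. The submitters' processing notes name RMA, whose output is on the log2 scale, unlike these values; which tool scaled them is not given in the sources used here. The 64 control probe sets were set aside. The remaining 45037 were fitted as log2(intensity + 16) in R 4.3.3 by limma 3.58.1 with eBayes moderation, 2-sided and with no covariate, over 6 creatine-fed and 7 untreated mice, with Benjamini-Hochberg adjustment over all of them. The fit was tested on simulated data. Figures used matplotlib 3.10.9.

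Symbols came from the platform annotation, brought up to date by Entrez ID for 34741 of the 34945 probe sets with 1 symbol (932 had several and 9160 none). Members, gene lists and tests were chosen with earlier results of these data known. Named in full were every Kdm5a probe set and the brightest and smallest-p probe sets of each other member. So were up to 3 genes per list with the smallest unadjusted p at the brightest probe set. Other probe sets of Kdm6a, Rcor1, Nsd3, Cxxc1, Suds3, Arid4b and Phf19, and the other Kdm5 paralogs, were named after their values were seen. Correlations used 100000 resamples. Alternatives changed the offset, scaling, probe filter, threshold, variance model, covariates or mice, or used an exact rank-sum test. The covariates for cerebellar, brainstem and astrocyte markers, leaving out both mice lowest in cerebellar markers, and correlations outside the 5 Kdm5a pairs were added after seeing the data.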

Additional observations from a re-analysis of the deposited data

Results flagged for a closer look

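In 60 groups, 30 probe sets by 2 diets, the highest or lowest mouse was set against the others, and 3 mice stood outside Dixon's 95% critical value; chance flags about 1 in 20 groups. At the brighter Kdm3b probe set creatine-fed replicate 6 read 231, below the 307 to 349 of the other 5 creatine-fed mice. At the brightest Kdm5a probe set untreated replicate 7 read 239, above the 175 to 201 of the other untreated mice. At the dimmest Kdm5b probe set creatine-fed replicate 4 read 2, below the 11 to 13 of the others.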

How the results depend on the processing

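The _a_at probe set of Kdm5a was the only member called in any setting. The count of called members was 1 in the main analysis and 0 with an offset of 1 (difference 0.56, limma adjusted p = 0.051), with the ratio of 3' to 5' controls (0.49, 0.0597), cortex (0.51, 0.0562), myelin (0.48, 0.317), cerebellar (0.48, 0.05) or brainstem markers (0.52, 0.211) as a covariate, without both mice lowest in cerebellar markers (0.51, 0.07) and by the exact rank-sum test, which called 0 probe sets in all and 4760 at an unadjusted p under 0.05. Leaving out each mouse gave 0 to 1 called members, with differences of 0.47 to 0.52 at that probe set. With the replicate number as a block it was 0 as well (0.48, 0.254), in a fit where untreated replicate 7 has no partner and adds nothing to the difference. The labels give no pairing of mice by number. Deviations of same-numbered mice correlated at -0.06 to 0.15, and 1 of 6 creatine-fed mice correlated best with its own number. These values cannot settle whether the numbers mark pairs.

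Members with the higher mean log2 value numbered 12 of 30, and 21 after centring. Centring moved the median difference over all probe sets from -0.03 to 0.02. Genes of the histone methylation and partner lists called numbered 0, and 1 with the astrocyte covariate, Kdm6a at 0.64 (limma, adjusted p = 0.0405). In that fit 268 probe sets were called in all, and the covariate itself differed between the groups. Of the 5 Kdm5a correlations, 0 to 1 passed when each mouse was left out. Probe sets called over the whole array numbered 4, and 138 in the brighter set, 161 with trend and robust variance, 96 with the first residual component, 36 with an offset of 50, 13 with array weights and 21 at an adjusted p under 0.1. They numbered 0 with an offset of 1, the replicate block, the cortex, myelin or brainstem covariate and without both mice lowest in cerebellar markers, and 0 to 6 when each mouse was left out. The number of arrays limits the precision, and dim probe sets are limited by background.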

Other observations

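Pairs added after seeing the data gave further values within groups. Of 9 pairs of probe sets of 1 gene, 8 were the 2 brightest of each gene with 2 or more probe sets. The other pair, the fourth and the fifth brightest of Kdm5a, was picked by name, and only it passed. Its r was 0.88 over 13 mice (permutation p = 0.00033, adjusted 0.00297) and its rho 0.90 (permutation adjusted p = 0.00279). Without creatine-fed replicate 4 and untreated replicate 6 its r was 0.74. The adjustment over 9 pairs does not account for the picking, so no conclusion is drawn from its adjusted p. Of 9 pairs of the Kdm5a _a_at probe set with the brightest probe set of another member, Kdm4a gave r = 0.79 (permutation p = 0.00194, adjusted 0.0175), rho = 0.82 (permutation adjusted p = 0.00657) and r = 0.77 without untreated replicate 1 and creatine-fed replicate 4. The Kdm4a pair did not pass with arrays centred on their medians (r = 0.68, permutation adjusted p = 0.156) or quantile normalized (r = 0.70, permutation adjusted p = 0.103), nor without creatine-fed replicate 3 (adjusted 0.0537) or 4 (adjusted 0.116). The other 8 pairs had adjusted p-values above 0.05, among them Kdm3a with r = -0.65 and Kdm5b with r = 0.63, both at 0.0587.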
